A study of Mus musculus with 20 samples.

Results

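The genes described here are 35 receptors and receptor chains for cytokines and growth factors, taken by name from the gene names on a whole-genome mouse microarray. The array carries 39429 probes under 30175 gene names, and 54 of those probes, each 60 bases long, are named for the 35 receptors. All 54 probes and all 35 genes passed the filter on dim probes, so the receptors make up 35 of the 21978 genes tested. The receptors were chosen by name and not by their response.

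Cytokine receptors are membrane proteins that a secreted ligand brings together in pairs or larger complexes, and most families share chains. The common gamma chain serves the receptors for a group of lymphoid interleukins, gp130 serves the receptors for interleukin 6 and its relatives, and one beta chain serves the granulocyte-macrophage colony-stimulating factor receptor. Class I and class II receptors signal through Janus kinases and STAT factors, TNF receptors and interleukin 1 receptors through adapters that lead to NF-kB, and TGF-beta receptors through SMAD proteins. In macrophages these receptors set how a cell that has met a bacterial product then answers to the cytokines around it.

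Bone-marrow-derived macrophages (BMDM) of C57BL/6 mice were grown for 6 days in medium conditioned by an L929 line that makes M-CSF, then given 200 ng/mL lipopolysaccharide (LPS, of Salmonella) in serum-free medium or left untreated. LPS binds the receptor TLR4, which signals through 2 adapters, MyD88 and TRIF. The study has 4 genotypes with 5 arrays each: MyD88 -/- KO cells, cells labelled TRIF -/- KO, MyD88/Trif -/- double KO cells, and wild-type (WT) cells. They are called MyD88-KO, TRIF-KO-labelled, double-KO and WT below. Each 2-colour array set LPS-treated RNA against untreated RNA of the same genotype at 1, 2, 4, 8 or 16 h, so there was 1 array for each genotype and time. LPS-treated RNA was in Cy5 on every array but the MyD88-KO 2 h array, where it was in Cy3 and the sign of the ratio was turned. Mice were matched for age and gender by the labels, which do not say whether the 5 arrays of a genotype came from separate animals, so p-values measure the spread between arrays, which here also holds the change over time.

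The labels were checked on the adapters themselves. The Ticam1 probe (TRIF) averaged 10.54 ± 0.19 log2 units in untreated MyD88-KO cells, 10.81 ± 0.28 in TRIF-KO-labelled cells, 7.28 ± 0.04 in double-KO cells and 10.65 ± 0.19 in WT cells (SD, n = 5 each). It was low in double-KO cells alone, and TRIF-KO-labelled cells overlapped WT cells. Whether the TRIF -/- allele of the TRIF-KO-labelled cells leaves RNA that this probe reads was not known here. That genotype is therefore named by its label throughout. The Myd88 probe averaged 14.16 ± 0.17, 14.45 ± 0.48, 14.01 ± 0.13 and 14.40 ± 0.41 in MyD88-KO, TRIF-KO-labelled, double-KO and WT cells. It was not low in either genotype labelled MyD88 -/-, and whether the probe lies in the deleted stretch was not known here, so it does not check the label. All 8 macrophage markers, Emr1 and Cd68 among them, were well above background on all 20 arrays. Between 57.01 and 70.49% of the 43020 non-control spots of an array were well above background. The arrays lay on 5 slides of 4 and were scanned on 2 days: all WT and TRIF-KO-labelled arrays and the MyD88-KO 1 and 2 h arrays on the first, and the MyD88-KO 4, 8 and 16 h arrays and all double-KO arrays on the second. No slide held 1 time point of more than 1 genotype, and scan day and genotype cannot be told apart between double-KO and either WT or TRIF-KO-labelled cells.

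Values are probe values, so the probes that decide what can be read are shown first, in lower case with the part that matters in capitals. Il15ra and Il4ra have 2 probes each that gave unlike ratios, and in each pair 1 probe holds a run of alternating G and T of at least 12 bases. Capitals mark the longest such run of each probe, and positions are of genome build mm9.
Il15ra probe that stands for the gene, 17-base run (chr2:11655416-11655475, + strand): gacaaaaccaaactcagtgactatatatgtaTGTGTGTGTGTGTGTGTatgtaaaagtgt
Il15ra second probe, 4-base run (chr2:11654809-11654868, + strand): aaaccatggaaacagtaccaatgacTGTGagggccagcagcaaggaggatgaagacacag
Il4ra probe that stands for the gene, 3-base run (chr7:132722922-132722981, + strand): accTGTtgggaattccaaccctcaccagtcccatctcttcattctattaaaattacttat
Il4ra second probe, 12-base run (chr7:132712550-132712609, + strand): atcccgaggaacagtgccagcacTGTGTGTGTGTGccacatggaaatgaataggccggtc
Over the 109 probes of the array with such a run, the median log2 ratio in double-KO cells, which had almost no response to LPS, was 0.77, and 100% of these probes were above 0. Over all 28304 probes kept it was -0.0016, with 49.11% above 0. On the dye-swapped array the 109 probes had a median of -0.51 after the sign was turned, with 0.92% above 0, against 0.003 and 50.61% for all probes. These probes read higher in Cy5 than in Cy3 in both dye orientations, so the Il15ra and Il4ra values are given with both probes below. The length of 12 was chosen after the values were seen. Over all genes, ratios of the double-KO arrays correlated at 0.46 to 0.64 with one another. They correlated at -0.24 to -0.10 with the swapped array and at -0.08 to 0.39 with the other arrays. The part of the dye in these correlations was not tested.

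Csf2rb and Csf2rb2 are neighbouring mouse genes for the shared beta chain and for a beta chain that serves interleukin 3 alone. Their probes that stand for the genes match over 31 of 42 overlapping bases, printed in capitals, so RNA of one gene may add to the signal of the other.
Csf2rb (chr15:78181168-78181227, + strand): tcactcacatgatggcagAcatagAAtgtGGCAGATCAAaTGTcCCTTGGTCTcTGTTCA
Csf2rb2 (chr15:78113126-78113185, - strand): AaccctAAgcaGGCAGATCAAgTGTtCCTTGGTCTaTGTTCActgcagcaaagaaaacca

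Promoters of 28 of the 35 receptors were matched by symbol in RefSeq (build GRCm38.p6, 250 bases before to 50 after a start), as 32 promoters. Csf1r, Csf2rb, Il10ra, Il10rb, Il12rb1, Il17ra and Il27ra were not matched. They were searched on both strands for an NF-kB type (GGG, any 2 bases, TTTCC), an interferon-stimulated response element or ISRE type (GAAA, any 2 bases, GAAA), TTCNNNGAA (STAT type) and TGANTCA (AP-1 type), since LPS acts through NF-kB and AP-1 and through interferon. The NF-kB type was found in 2 of the 28 receptors and in 1.63% of all 32851 promoters, the ISRE type in 3 and in 3.44%, the STAT type in 7 and in 8.30%, and the AP-1 type in 2, Il15ra and Osmr, and in 7.81%. The 5 promoters with an NF-kB or ISRE match are shown, with each match in capitals.
Ifngr2, NF-kB type (chr16:91546809-91547108, + strand): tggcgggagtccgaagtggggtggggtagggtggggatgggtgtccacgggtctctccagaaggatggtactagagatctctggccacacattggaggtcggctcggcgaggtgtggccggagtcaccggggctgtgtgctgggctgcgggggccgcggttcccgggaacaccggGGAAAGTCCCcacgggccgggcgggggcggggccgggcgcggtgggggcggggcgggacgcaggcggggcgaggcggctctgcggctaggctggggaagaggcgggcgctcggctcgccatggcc
Il4ra, NF-kB type (chr7:125552021-125552320, + strand): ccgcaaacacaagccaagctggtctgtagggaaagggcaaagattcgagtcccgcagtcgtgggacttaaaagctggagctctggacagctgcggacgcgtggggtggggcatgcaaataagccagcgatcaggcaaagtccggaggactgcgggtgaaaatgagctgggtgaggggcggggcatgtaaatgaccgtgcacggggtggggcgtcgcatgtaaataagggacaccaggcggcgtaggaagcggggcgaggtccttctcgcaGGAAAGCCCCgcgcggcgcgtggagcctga
Il1rap, ISRE type (chr16:26581455-26581754, + strand): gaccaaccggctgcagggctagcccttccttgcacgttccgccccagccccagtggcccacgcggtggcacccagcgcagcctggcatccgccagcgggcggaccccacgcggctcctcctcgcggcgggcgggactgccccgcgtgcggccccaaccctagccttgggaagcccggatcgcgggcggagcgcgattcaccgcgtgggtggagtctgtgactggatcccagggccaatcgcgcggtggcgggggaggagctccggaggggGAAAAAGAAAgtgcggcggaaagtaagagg
Tnfrsf14, ISRE type (chr4:154928028-154928327, - strand): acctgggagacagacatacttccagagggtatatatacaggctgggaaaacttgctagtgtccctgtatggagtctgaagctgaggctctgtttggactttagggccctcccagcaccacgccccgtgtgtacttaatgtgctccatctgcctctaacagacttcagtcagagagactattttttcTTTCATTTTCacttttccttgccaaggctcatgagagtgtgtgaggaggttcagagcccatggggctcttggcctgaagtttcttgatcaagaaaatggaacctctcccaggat
Tnfrsf1b, ISRE and STAT type (chr4:145246821-145247120, - strand): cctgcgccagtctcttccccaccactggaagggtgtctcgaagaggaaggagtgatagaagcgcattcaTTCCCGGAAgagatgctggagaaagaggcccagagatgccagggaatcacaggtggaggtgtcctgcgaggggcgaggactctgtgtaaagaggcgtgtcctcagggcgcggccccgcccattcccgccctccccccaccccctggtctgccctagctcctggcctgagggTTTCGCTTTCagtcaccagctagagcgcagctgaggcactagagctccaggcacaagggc
A match is a description of these letters and not of a factor bound there.

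A response is the log2 ratio of LPS-treated over untreated cells on 1 array, and it was tested as the mean over the 5 times with limma, with p adjusted over all 21978 genes and a threshold of 0.05. In MyD88-KO cells 13 of the 35 receptors responded, 8 higher and 5 lower, against 35.5% of all genes (16.8% higher and 18.7% lower). In TRIF-KO-labelled cells 13 responded, 6 higher and 7 lower, against 29.1% of all genes (12.9% higher and 16.2% lower), and the 6 include Il15ra, whose mean in double-KO cells was nearly the same. In double-KO cells 0 responded with limma, against 0.332% of all genes (0.328% higher and 0.00455% lower), and 1 receptor had an unadjusted p under 0.05. In WT cells 21 responded, 16 higher and 5 lower, against 36.4% of all genes (16.7% higher and 19.7% lower). The 16 include Osmr, which passed the filter on dim probes only through LPS-treated WT arrays, so its place there supports no difference. The receptors' median response was 0.12 in MyD88-KO, 0.07 in TRIF-KO-labelled, 0.0034 in double-KO and 0.26 in WT cells, and that of all genes lay between -0.02 and 0.0017.

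When 1 array at a time was left out, the count of receptors that responded was 9 to 15 in MyD88-KO, 6 to 14 in TRIF-KO-labelled and 15 to 22 in WT cells, and it was 0 in double-KO cells each time. A call is said below to be lost without an array where leaving out any 1 of the arrays named ended it, and the brackets then give the range of the value and the highest adjusted p over the 20 fits that each left out 1 array. A term for the dye, which rests on the single swapped array, left 2 receptors in each of these 3 genotypes: Il2rg (1.08) and Tnfrsf1b (1.01) in MyD88-KO, Ifnar1 and Tnfrsf1b in TRIF-KO-labelled, and Ifnar1 (1.35) and Tnfrsf1b (1.83) in WT cells. Slide as a fixed block left 2, 3 and 0 receptors in MyD88-KO, TRIF-KO-labelled and WT cells.

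**Figure D1:**
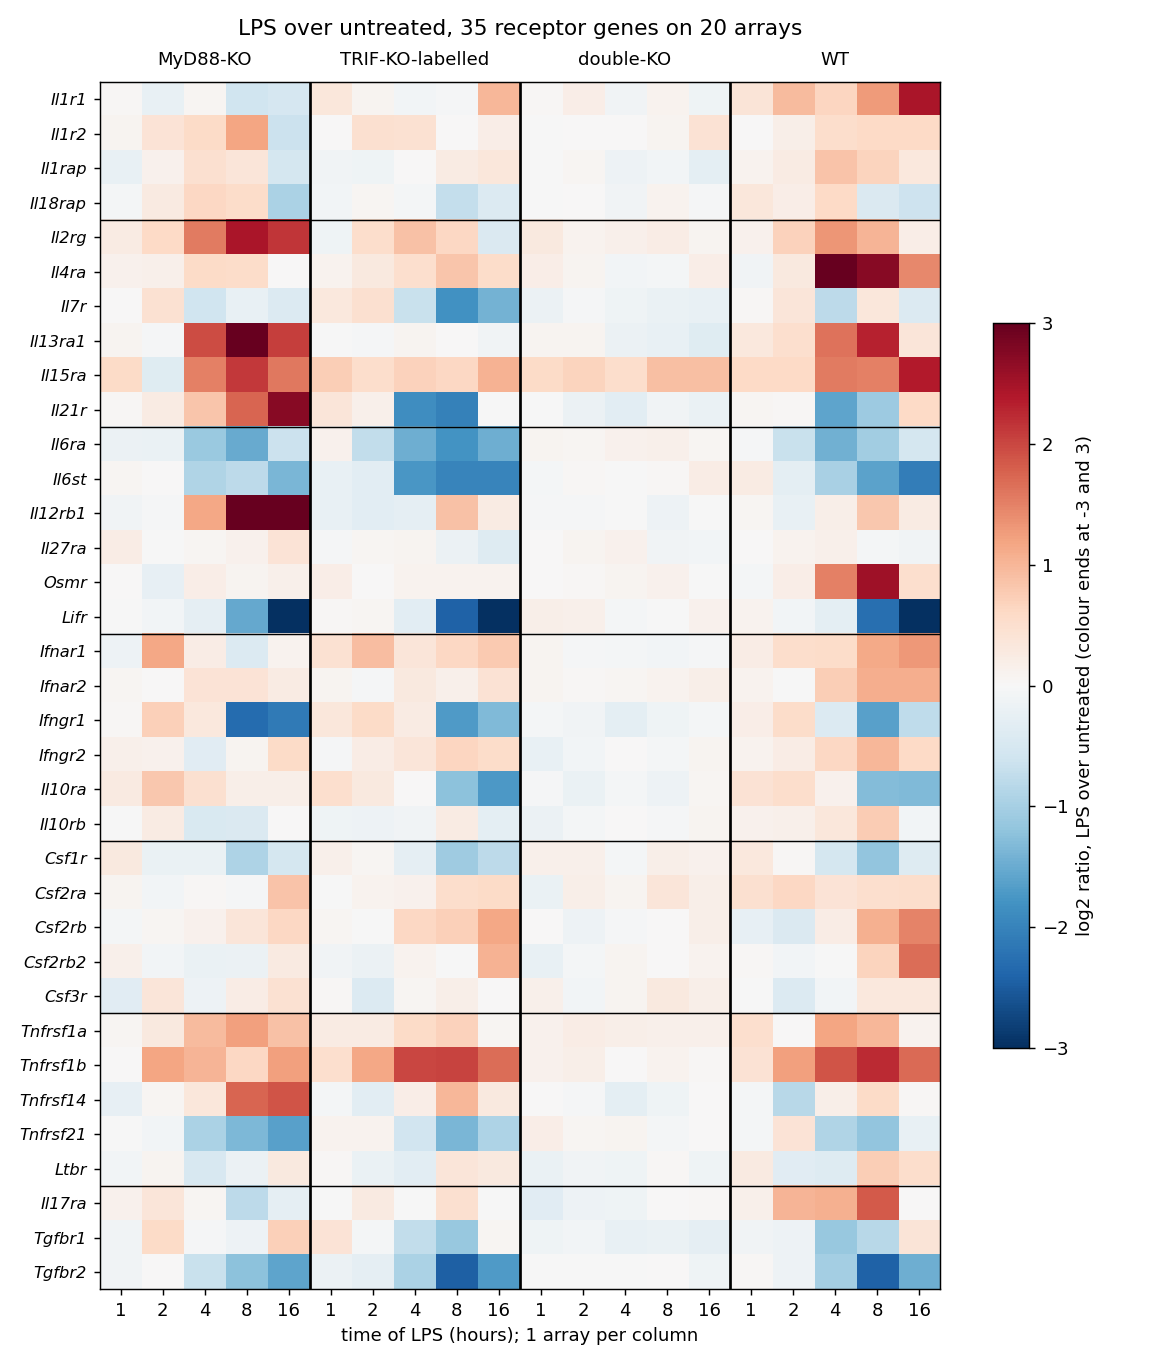
Heat map of the log2 ratio of LPS-treated over untreated cells for the 35 receptors (rows, grouped by family) on the 20 arrays (columns, by genotype and by time from 1 to 16 h); the colour scale gives the ratio and ends at -3 and 3. MyD88-KO arrays at 8 and 16 h hold the highest values, for Il12rb1 (4.95 and 4.43), WT at 16 h the lowest, for Lifr (-3.50), and the double-KO columns are pale except for Il15ra, at 0.52 to 0.90.

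Of the 6 chains of the common gamma chain family, 4 responded in MyD88-KO cells, all higher, 1 higher and 1 lower in TRIF-KO-labelled cells, 0 in double-KO cells and 4, all higher, in WT cells. The 1 higher in TRIF-KO-labelled cells is Il15ra, with the value set beside its double-KO value further on. Il2rg, the common gamma chain itself, had log2 ratios of 0.25, 0.61, 1.56, 2.45 and 2.15 at 1, 2, 4, 8 and 16 h in MyD88-KO cells. It had -0.12, 0.52, 0.88, 0.62 and -0.44 in TRIF-KO-labelled cells, between 0.08 and 0.28 in double-KO cells and 0.14, 0.70, 1.33, 1.02 and 0.19 in WT cells. WT and TRIF-KO-labelled cells were highest at 4 h and near 0 or below it at 16 h, while MyD88-KO cells were still 4.42-fold higher with LPS at 16 h. Its mean response was 1.40 ± 0.22 (SE, adjusted p = 0.00096) in MyD88-KO cells, held in all 20 fits that left out 1 array, and 0.68 ± 0.22 (SE, adjusted p = 0.03) in WT cells. The Il2rg call in WT cells was lost without the WT 1, 2, 4 and 8 h arrays (0.57 to 0.79, adjusted p up to 0.13).

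Il13ra1, which pairs with Il4ra to bind interleukin 13, had ratios of 0.09, -0.03, 1.96, 3.14 and 2.06 in MyD88-KO cells at the 5 times. It stayed between -0.11 and 0.09 in TRIF-KO-labelled cells and between -0.37 and 0.09 in double-KO cells, and was 0.32, 0.51, 1.63, 2.31 and 0.37 in WT cells. At 8 h LPS-treated MyD88-KO cells held 8.83 times the untreated level and WT cells 4.97 times. The mean response was 1.45 ± 0.31 (SE, adjusted p = 0.0036) in MyD88-KO cells and 1.03 ± 0.31 (SE, adjusted p = 0.019) in WT cells. The WT call was lost without the WT 2, 4 and 8 h arrays (0.84 to 1.22, adjusted p up to 0.1). The difference between TRIF-KO-labelled and WT cells, -1.04 (adjusted p = 0.64), did not pass the test.

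Il4ra, the chain shared by the interleukin 4 and 13 receptors, was high in WT cells alone, with ratios of 0.12, 0.16, 0.57, 0.56 and 0.01 in MyD88-KO and 0.10, 0.28, 0.51, 0.84 and 0.54 in TRIF-KO-labelled cells. It was between -0.07 and 0.19 in double-KO cells and had ratios of -0.11, 0.29, 2.98, 2.72 and 1.45 in WT cells. The WT values at 4, 8 and 16 h lay above every value of the other genotypes, and those at 1 and 2 h did not. The WT mean was 1.47 ± 0.27 (SE, adjusted p = 0.0014), with 4 of 5 arrays above 0. The second Il4ra probe, which holds the 12-base run printed above, had ratios between 0.24 and 0.51 in double-KO cells and at most 0.79 in WT cells, and was not as high in WT cells.

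Il15ra, which presents interleukin 15 to neighbouring cells, gave, with the probe that stands for it, ratios of 0.57, -0.37, 1.52, 2.11 and 1.57 in MyD88-KO and 0.75, 0.53, 0.69, 0.61 and 1.04 in TRIF-KO-labelled cells. It had 0.57, 0.66, 0.52, 0.90 and 0.90 in double-KO cells and had ratios of 0.59, 0.61, 1.57, 1.52 and 2.38 in WT cells. This probe carries the 17-base run, and all its double-KO values were above 0. Its TRIF-KO-labelled response of 0.72 lay beside a double-KO response of 0.71 and is not read as a response to LPS. On the swapped MyD88-KO 2 h array it read -0.37 and the second probe -0.39, so that array does not set the 2 probes apart. The second probe, without the run, gave 0.08, -0.39, 3.08, 3.45 and 3.42 in MyD88-KO and 0.0029, -0.71, 0.19, 0.21 and 0.43 in TRIF-KO-labelled cells. It was between -0.13 and 0.0048 in double-KO cells and had ratios of 0.43, 0.48, 3.02, 1.30 and 1.86 in WT cells. With it, MyD88-KO and WT cells stood apart from TRIF-KO-labelled and double-KO cells from 4 h on. Tested on its own, a choice made after the values were seen, the second probe differed by 1.97 ± 0.53 (SE, adjusted p = 0.036) between MyD88-KO and double-KO cells.

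Il21r, the interleukin 21 receptor, had opposite signs by genotype. Its ratios were 0.05, 0.24, 0.82, 1.76 and 2.74 in MyD88-KO and 0.35, 0.16, -1.87, -2.02 and -0.0029 in TRIF-KO-labelled cells. It was between -0.32 and -0.02 in double-KO cells and had ratios of 0.06, 0.05, -1.58, -1.09 and 0.59 in WT cells. At 4 and 8 h the MyD88-KO arrays were above 0 and the TRIF-KO-labelled and WT arrays more than 1 log2 unit below it. The mean response was 1.12 ± 0.35 (SE, adjusted p = 0.022) in MyD88-KO cells and -0.39 (adjusted p = 0.4) in WT cells. The MyD88-KO call was lost without the MyD88-KO 4, 8 and 16 h arrays (0.80 to 1.53, adjusted p up to 0.15). The MyD88-KO minus WT difference, 1.51 (adjusted p = 0.23), and the MyD88-KO minus TRIF-KO-labelled difference, 1.80 (adjusted p = 0.12), did not pass the test. Il7r, the interleukin 7 receptor, was lower in TRIF-KO-labelled cells, with ratios of 0.32, 0.47, -0.67, -1.81 and -1.43 and a mean of -0.62 (adjusted p = 0.039). That call was lost without the TRIF-KO-labelled 4, 8 and 16 h arrays (-0.84 to -0.30, adjusted p up to 0.28). It was between -0.61 and 0.46 in MyD88-KO cells and between -0.78 and 0.37 in WT cells.

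**Figure D2:**
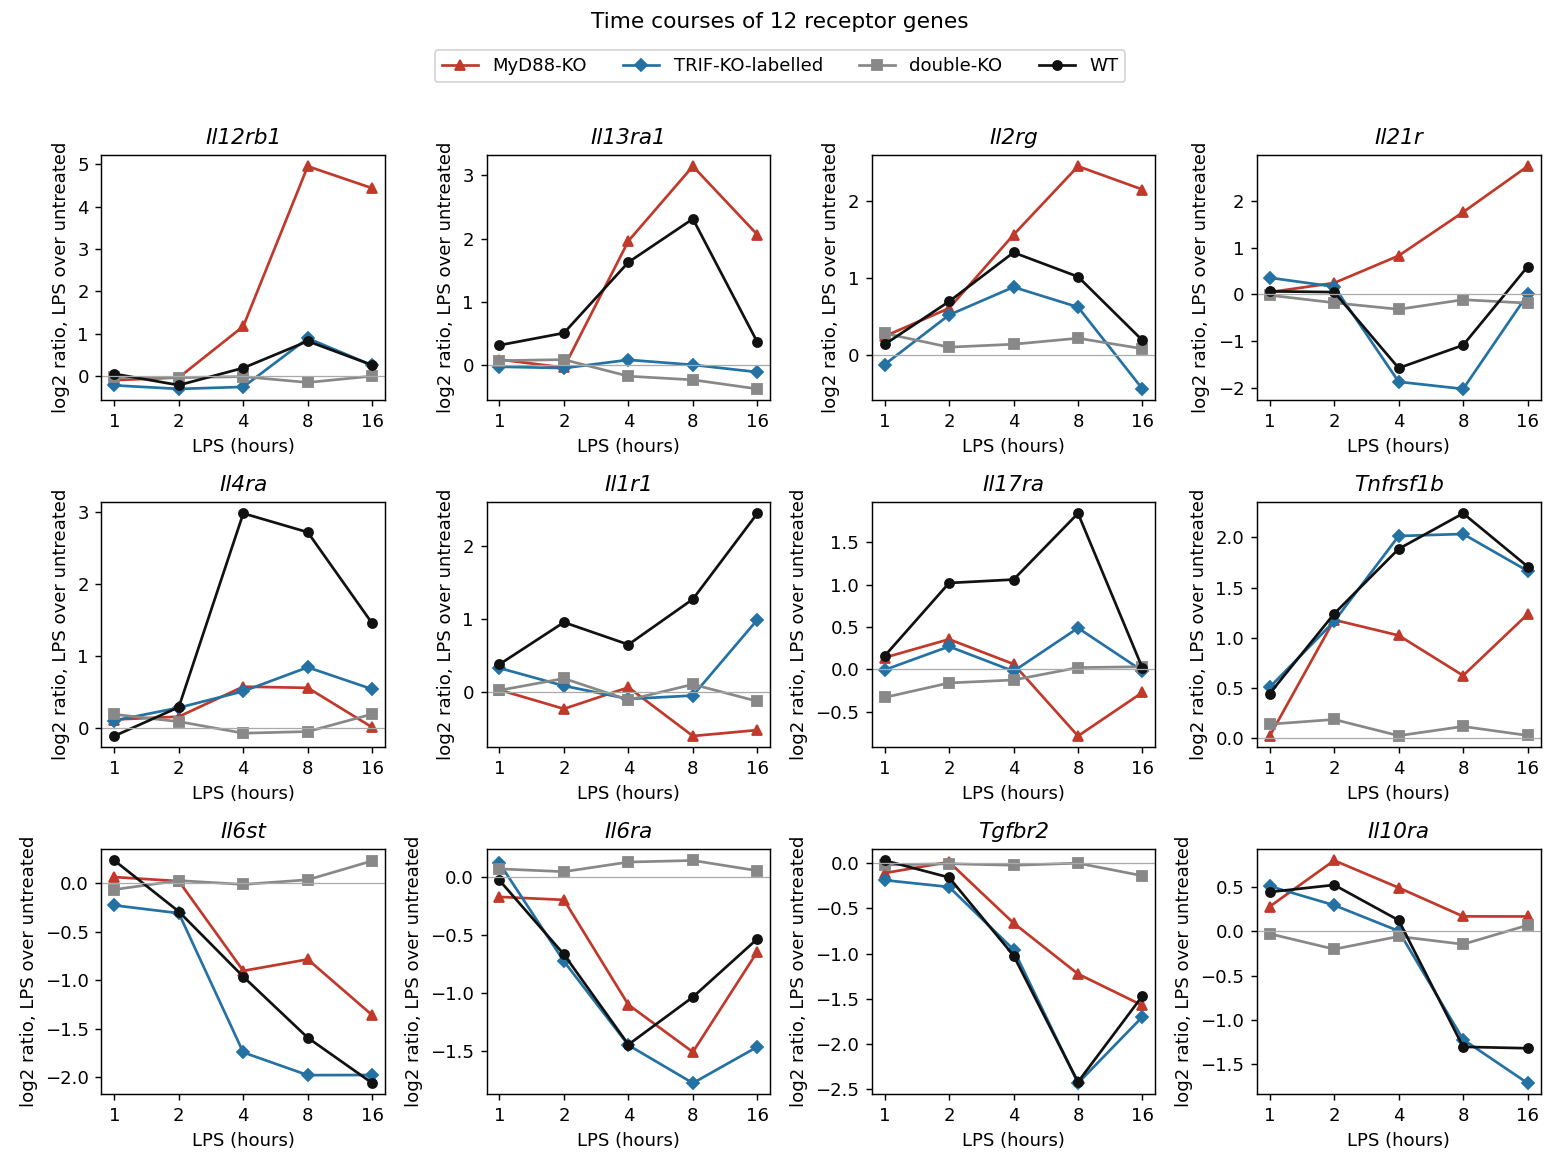
Log2 ratio of LPS-treated over untreated cells against time after LPS (1, 2, 4, 8 and 16 h, log-spaced axis) for 12 receptors, 1 point per array and 1 line per genotype. At 16 h Il12rb1, Il2rg and Il21r are highest in MyD88-KO cells and Il4ra and Il1r1 in WT cells, and Il6st and Tgfbr2 are below -1 in all genotypes but double-KO.

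Of the 6 chains of the gp130 family and the interleukin 12 type, 1 responded higher and 3 lower in MyD88-KO cells, 3 lower in TRIF-KO-labelled cells, 0 in double-KO cells, and 1 higher and 3 lower in WT cells. The 1 higher was Il12rb1 in MyD88-KO cells and Osmr in WT cells. The 3 that were lower were the same in these genotypes: Il6ra, the interleukin 6 binding chain, Il6st, which encodes gp130, and Lifr, the leukaemia inhibitory factor receptor. Il6ra had ratios of -0.17, -0.20, -1.1, -1.51 and -0.64 in MyD88-KO and 0.12, -0.73, -1.45, -1.78 and -1.47 in TRIF-KO-labelled cells. It was between 0.05 and 0.15 in double-KO cells and had ratios of -0.03, -0.67, -1.45, -1.04 and -0.53 in WT cells. From 2 h on every array of the 3 responding genotypes lay below every double-KO array. The mean Il6ra response was -0.72 ± 0.17 (SE, adjusted p = 0.0051) in MyD88-KO, -1.06 ± 0.17 (SE, adjusted p = 6e-04) in TRIF-KO-labelled and -0.74 ± 0.17 (SE, adjusted p = 0.004) in WT cells.

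Il6st had ratios of 0.06, 0.02, -0.90, -0.79 and -1.36 in MyD88-KO and -0.23, -0.31, -1.75, -1.98 and -1.98 in TRIF-KO-labelled cells. It was between -0.06 and 0.23 in double-KO cells and had ratios of 0.24, -0.29, -0.96, -1.59 and -2.06 in WT cells. At 16 h the untreated level was 2.57 times the LPS-treated level in MyD88-KO, 3.94 times in TRIF-KO-labelled and 4.18 times in WT cells. Its mean response was -0.59 ± 0.20 (SE, adjusted p = 0.036) in MyD88-KO cells, -1.25 ± 0.20 (SE, adjusted p = 0.00082) in TRIF-KO-labelled cells and -0.94 ± 0.20 (SE, adjusted p = 0.0035) in WT cells. The MyD88-KO call was lost without the MyD88-KO 1, 2, 4, 8 and 16 h arrays (-0.66 to -0.54, adjusted p up to 0.14). Lifr was near 0 until 4 h and then far below it, with ratios at 8 and 16 h of -1.54 and -3.32 in MyD88-KO, -2.43 and -3.19 in TRIF-KO-labelled and -2.27 and -3.50 in WT cells, against between -0.06 and 0.17 over all times in double-KO cells. Its mean was -1.05 (adjusted p = 0.02) in MyD88-KO cells, -1.16 (adjusted p = 0.014) in TRIF-KO-labelled cells and -1.21 (adjusted p = 0.0097) in WT cells. These Lifr calls were lost without the MyD88-KO 8 and 16 h arrays in MyD88-KO (-1.12 to -0.83, adjusted p up to 0.12) and the TRIF-KO-labelled 8 and 16 h arrays in TRIF-KO-labelled cells (-1.29 to -0.98, adjusted p up to 0.089). In WT cells the Lifr call was lost without the WT 8 h array (-1.34 to -0.99, adjusted p up to 0.051).

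A second Lifr probe was lower still and from an earlier time, with ratios of -0.23, -0.35, -3.65, -3.56 and -4.53 in MyD88-KO and 0.27, -0.38, -2.96, -4.58 and -4.41 in TRIF-KO-labelled cells. It was between 0.09 and 0.32 in double-KO cells and had ratios of 0.16, -0.92, -3.42, -5.04 and -4.86 in WT cells. Tested on its own, again a choice made with the values known, it differed by -2.65 ± 0.65 (SE, adjusted p = 0.027) between MyD88-KO and double-KO cells, by -2.60 ± 0.65 (SE, adjusted p = 0.032) between TRIF-KO-labelled and double-KO cells and by 3.00 ± 0.65 (SE, adjusted p = 0.012) between double-KO and WT cells. The probe that stands for Lifr did not pass any of these 3 tests, and the remaining Lifr probe, A_51_P113182, had ratios of 0.19, -0.15, -0.37, -1.34 and -1.19 in MyD88-KO and 0.35, 0.07, -0.57, -0.88 and -1.38 in WT cells.

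Il12rb1, the chain shared by the interleukin 12 and interleukin 23 receptors, had the highest ratios of any receptor. They were -0.10, -0.04, 1.17, 4.95 and 4.43 in MyD88-KO and -0.22, -0.31, -0.26, 0.89 and 0.25 in TRIF-KO-labelled cells. It was between -0.16 and -0.01 in double-KO cells and had ratios of 0.05, -0.22, 0.19, 0.82 and 0.25 in WT cells. The MyD88-KO values at 8 and 16 h correspond to 31.0-fold and 21.6-fold higher levels with LPS, against 1.77-fold and 1.19-fold in WT cells at these times. The mean response was 2.08 ± 0.46 (SE, adjusted p = 0.0042) in MyD88-KO cells, where 3 of 5 arrays were above 0, and 0.22 (adjusted p = 0.74) in WT cells. The second Il12rb1 probe read 1.30 and 1.20 in MyD88-KO cells at 8 and 16 h, the same order of genotypes on a smaller scale. As a mean over times, the MyD88-KO minus WT difference was 1.87 (adjusted p = 0.25) and did not pass the test; the slopes over time are compared further on.

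Osmr, the oncostatin M receptor, was well above background on 3 arrays, all of LPS-treated WT cells, and never in untreated cells. Its WT ratios were -0.06, 0.20, 1.51, 2.55 and 0.51. With the untreated level at its background bound, the mean LPS-treated WT level was 1.77-fold higher (measured log2 means 7.60 with LPS and 6.66 untreated). That mean includes LPS-treated arrays not well above background, so 1.77 is not a lower limit. The probe passed the filter through those 3 arrays alone, so its values are given as a description. No fold is given in the other genotypes, where both channels were below background. Il27ra, which pairs with gp130 for interleukin 27, passed no test of a response, with means of 0.17 in MyD88-KO, -0.09 in TRIF-KO-labelled, 0.01 in double-KO and 0.02 in WT cells.

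Of the 6 receptors of the interferon and interleukin 10 class, 0 responded in MyD88-KO cells with limma, 2 were higher in TRIF-KO-labelled cells, 0 responded in double-KO cells and 3 were higher in WT cells. The 3 in WT cells were both chains of the type I interferon receptor and the signalling chain of the interferon gamma receptor. Ifnar1 had ratios of -0.16, 1.15, 0.22, -0.42 and 0.11 in MyD88-KO and 0.45, 0.93, 0.37, 0.63 and 0.79 in TRIF-KO-labelled cells. It was between -0.08 and 0.08 in double-KO cells and had ratios of 0.22, 0.53, 0.55, 1.15 and 1.31 in WT cells. The highest MyD88-KO value is that of the swapped 2 h array. Its mean was 0.63 ± 0.16 (SE, adjusted p = 0.01) in TRIF-KO-labelled cells and 0.75 ± 0.16 (SE, adjusted p = 0.0034) in WT cells. The TRIF-KO-labelled call was lost without the TRIF-KO-labelled 8 h array (0.61 to 0.68, adjusted p up to 0.051). Ifnar2 had 0.06, 0.02, 0.42, 0.42 and 0.25 in MyD88-KO and 0.08, -0.03, 0.29, 0.16 and 0.43 in TRIF-KO-labelled cells. It was between 0.04 and 0.17 in double-KO cells and had ratios of 0.10, -0.02, 0.75, 1.08 and 1.1 in WT cells, where its mean was 0.60 ± 0.10 (SE, adjusted p = 7e-04). From 4 h on the WT values lay above those of the other genotypes.

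Ifngr2 was between -0.34 and 0.57 in MyD88-KO, between -0.04 and 0.64 in TRIF-KO-labelled and between -0.22 and 0.07 in double-KO cells, and 0.11, 0.23, 0.62, 0.99 and 0.60 in WT cells. Its mean was 0.35 ± 0.10 (SE, adjusted p = 0.018) in TRIF-KO-labelled cells and 0.51 ± 0.10 (SE, adjusted p = 0.0019) in WT cells. The TRIF-KO-labelled call was lost without the TRIF-KO-labelled 4, 8 and 16 h arrays (0.32 to 0.40, adjusted p up to 0.091). Ifngr1, the ligand-binding chain of the same receptor, ran the other way at late times, with 0.03, 0.73, 0.31, -2.31 and -2.11 in MyD88-KO and 0.34, 0.57, 0.24, -1.69 and -1.31 in TRIF-KO-labelled cells. It was between -0.29 and -0.06 in double-KO cells and had ratios of 0.20, 0.55, -0.41, -1.63 and -0.77 in WT cells. It was above 0 at 1 and 2 h and below 0 at 8 and 16 h in all 3 of the responding genotypes, and its mean over times passed no test. Il10ra, the binding chain for interleukin 10, had ratios of 0.28, 0.80, 0.49, 0.17 and 0.17 in MyD88-KO and 0.51, 0.29, 0.0025, -1.22 and -1.71 in TRIF-KO-labelled cells. It was between -0.20 and 0.07 in double-KO cells and had ratios of 0.44, 0.52, 0.12, -1.30 and -1.32 in WT cells. At 8 and 16 h MyD88-KO cells were above 0, and TRIF-KO-labelled and WT cells more than 1 log2 unit below it. Il10rb, the second chain of that receptor, had mean responses of -0.13 in MyD88-KO, -0.08 in TRIF-KO-labelled, -0.04 in double-KO and 0.26 in WT cells and passed no test of a response.

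Of the 4 interleukin 1 and 18 receptor chains, 0 responded in MyD88-KO, TRIF-KO-labelled or double-KO cells with limma and 2 were higher in WT cells. Il1r1, the signalling receptor for interleukin 1, had ratios of 0.03, -0.23, 0.07, -0.60 and -0.52 in MyD88-KO and 0.33, 0.09, -0.09, -0.04 and 0.99 in TRIF-KO-labelled cells. It was between -0.12 and 0.19 in double-KO cells and had ratios of 0.38, 0.96, 0.65, 1.27 and 2.44 in WT cells. Every WT value at 2 h and later was above all values of the other genotypes at the same time, and the WT level at 16 h was 5.43 times the untreated one. Its WT mean was 1.14 ± 0.20 (SE, adjusted p = 0.0011), above 0 on 5 of 5 arrays. Il1rap, the accessory protein, had WT ratios of 0.11, 0.24, 0.84, 0.67 and 0.31 and a WT mean of 0.43 (adjusted p = 0.0087), lost without the WT 4 h array (0.36 to 0.49, adjusted p up to 0.06). Of its other probes, A_55_P2041422 had a WT mean of 0.38 and A_55_P2041432 a WT mean of 0.06. Il1r2, the decoy receptor, and Il18rap, the accessory chain for interleukin 18, passed no test of a response, with WT means of 0.39 and 0.02.

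Of the 5 colony-stimulating factor receptor chains, 0 responded in MyD88-KO cells with limma, 1 higher and 1 lower in TRIF-KO-labelled cells, 0 in double-KO cells, and 3 higher and 1 lower in WT cells. Csf2ra, the binding chain for granulocyte-macrophage colony-stimulating factor, was above 0 on 5 of 5 WT arrays with ratios between 0.41 and 0.63 and a mean of 0.51 ± 0.10 (SE, adjusted p = 0.0016). Its double-KO ratios were between -0.20 and 0.37, and its WT call was lost with the dye term. Csf2rb had ratios of -0.05, 0.06, 0.13, 0.35 and 0.63 in MyD88-KO and 0.06, -0.01, 0.63, 0.71 and 1.15 in TRIF-KO-labelled cells. It was between -0.16 and 0.18 in double-KO cells and had ratios of -0.25, -0.44, 0.23, 1.06 and 1.5 in WT cells. Csf2rb2 had 0.15, -0.08, -0.19, -0.17 and 0.26 in MyD88-KO and -0.12, -0.18, 0.11, -0.02 and 1.04 in TRIF-KO-labelled cells. It was between -0.23 and 0.11 in double-KO cells and had ratios of 0.04, -0.08, -0.02, 0.68 and 1.67 in WT cells. Both beta chains were highest at 16 h in WT cells, and their probes are the pair printed above. The WT calls were lost for Csf2rb (0.42) without the WT 4, 8 and 16 h arrays (0.25 to 0.56, adjusted p up to 0.18) and for Csf2rb2 (0.46) without the WT 8 and 16 h arrays (0.26 to 0.56, adjusted p up to 0.15). The TRIF-KO-labelled call of Csf2rb (0.51) was lost without the TRIF-KO-labelled 4 and 16 h arrays (0.45 to 0.54, adjusted p up to 0.065).

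Csf1r, the M-CSF receptor that these cells depend on, had mean responses of -0.31 (adjusted p = 0.066) in MyD88-KO, -0.38 (adjusted p = 0.037) in TRIF-KO-labelled, 0.11 (adjusted p = 1) in double-KO and -0.34 (adjusted p = 0.045) in WT cells. Its TRIF-KO-labelled call was lost without the TRIF-KO-labelled 1, 4, 8 and 16 h arrays (-0.44 to -0.29, adjusted p up to 0.17). The WT call of Csf1r was lost without the MyD88-KO 1, 2, 4, 8 and 16 h, TRIF-KO-labelled 1, 4 and 8 h, double-KO 4 h and WT 2, 4, 8 and 16 h arrays (-0.41 to -0.24, adjusted p up to 0.23). With median centring of each array in place of loess its means in TRIF-KO-labelled and WT cells were 0.02 and 0.17, so its direction depended on the normalization. Csf3r, the granulocyte colony-stimulating factor receptor, passed no test of a response, with means of 0.11 in MyD88-KO, -0.02 in TRIF-KO-labelled, 0.12 in double-KO and 0.02 in WT cells.

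Of the 5 TNF receptor superfamily members, 3 responded higher and 1 lower in MyD88-KO cells, 2 higher and 1 lower in TRIF-KO-labelled cells, 0 in double-KO cells and 2, both higher, in WT cells. Tnfrsf1b, which encodes TNF receptor 2, had ratios of 0.02, 1.18, 1.02, 0.62 and 1.23 in MyD88-KO and 0.51, 1.16, 2.01, 2.03 and 1.67 in TRIF-KO-labelled cells. It was between 0.02 and 0.18 in double-KO cells and had ratios of 0.44, 1.24, 1.89, 2.24 and 1.71 in WT cells. TRIF-KO-labelled and WT values ran side by side at every time, MyD88-KO values were lower from 4 h on, and from 2 h on every double-KO value was below all the others. The mean response was 0.81 ± 0.17 (SE, adjusted p = 0.0032) in MyD88-KO, 1.48 ± 0.17 (SE, adjusted p = 9.8e-05) in TRIF-KO-labelled and 1.5 ± 0.17 (SE, adjusted p = 5.7e-05) in WT cells, all held in each of the 20 fits that left out 1 array. The MyD88-KO minus WT difference, -0.69 (adjusted p = 0.24), did not pass the test. Tnfrsf1a, TNF receptor 1, had means of 0.68 (adjusted p = 0.0021) in MyD88-KO, 0.36 (adjusted p = 0.049) in TRIF-KO-labelled and 0.56 (adjusted p = 0.0045) in WT cells. In double-KO cells its mean was 0.17, with every ratio above 0 (0.13 to 0.23), and did not pass the test. Its second probe had means of 0.38 in MyD88-KO, 0.02 in TRIF-KO-labelled, 0.06 in double-KO and 0.38 in WT cells. The TRIF-KO-labelled call of Tnfrsf1a was lost without the MyD88-KO 2, 4 and 8 h, TRIF-KO-labelled 1, 2, 4, 8 and 16 h, double-KO 1 and 16 h and WT 1 and 8 h arrays (0.32 to 0.41, adjusted p up to 0.16).

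Tnfrsf14, the receptor also called HVEM, had ratios of -0.24, 0.07, 0.34, 1.75 and 1.90 in MyD88-KO and -0.06, -0.32, 0.20, 0.99 and 0.29 in TRIF-KO-labelled cells. It was between -0.29 and 0.01 in double-KO cells and had ratios of -0.06, -0.84, 0.16, 0.57 and 0.03 in WT cells. The MyD88-KO values at 8 and 16 h were the highest of all 20, and the MyD88-KO mean was 0.76 (adjusted p = 0.01), lost without the MyD88-KO 8 and 16 h arrays (0.50 to 0.99, adjusted p up to 0.087). Tnfrsf21, a death-domain receptor, had ratios of -0.01, -0.09, -0.94, -1.35 and -1.62 in MyD88-KO and 0.11, 0.11, -0.57, -1.36 and -0.92 in TRIF-KO-labelled cells. It was between -0.05 and 0.20 in double-KO cells and had ratios of -0.07, 0.41, -0.90, -1.19 and -0.23 in WT cells. At 4 and 8 h it was below 0 in the 3 responding genotypes and apart from double-KO cells. Its mean was -0.80 ± 0.16 (SE, adjusted p = 0.0026) in MyD88-KO and -0.53 ± 0.16 (SE, adjusted p = 0.023) in TRIF-KO-labelled cells. The TRIF-KO-labelled call was lost without the TRIF-KO-labelled 2, 8 and 16 h arrays (-0.58 to -0.44, adjusted p up to 0.13). Ltbr, the lymphotoxin beta receptor, passed no test of a response, with means of -0.07 in MyD88-KO, 0.04 in TRIF-KO-labelled, -0.10 in double-KO and 0.16 in WT cells.

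Of the 3 interleukin 17 and TGF-beta receptor chains, 1 responded lower in MyD88-KO cells, 1 lower in TRIF-KO-labelled cells, 0 in double-KO cells, and 1 higher and 1 lower in WT cells. Tgfbr2, the ligand-binding TGF-beta receptor, had ratios of -0.11, 0.02, -0.66, -1.23 and -1.58 in MyD88-KO and -0.19, -0.26, -0.96, -2.44 and -1.70 in TRIF-KO-labelled cells. It was between -0.14 and 0.0027 in double-KO cells and had ratios of 0.03, -0.16, -1.02, -2.42 and -1.47 in WT cells. From 4 h on all arrays of the 3 responding genotypes were below all double-KO arrays. Its mean was -0.71 ± 0.20 (SE, adjusted p = 0.015) in MyD88-KO cells, -1.11 ± 0.20 (SE, adjusted p = 0.0015) in TRIF-KO-labelled cells and -1.01 ± 0.20 (SE, adjusted p = 0.0021) in WT cells. The MyD88-KO call was lost without the MyD88-KO 16 h array (-0.81 to -0.59, adjusted p up to 0.093). Its signalling partner Tgfbr1 passed no test of a response, with means of 0.20, -0.29, -0.18 and -0.37 in MyD88-KO, TRIF-KO-labelled, double-KO and WT cells. Il17ra, the shared chain of the interleukin 17 receptors, had ratios of 0.14, 0.35, 0.06, -0.79 and -0.27 in MyD88-KO and -0.01, 0.27, -0.02, 0.49 and -0.02 in TRIF-KO-labelled cells. It was between -0.33 and 0.03 in double-KO cells and had ratios of 0.16, 1.02, 1.06, 1.84 and 0.01 in WT cells. WT cells at 2, 4 and 8 h stood above every other array, and the WT mean was 0.82 ± 0.19 (SE, adjusted p = 0.0054).

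The 6 differences in response between genotypes were then tested. MyD88-KO minus TRIF-KO-labelled, the comparison of the 2 adapters, gave 0 receptors with limma (0% of all genes), with 9 receptors at an unadjusted p under 0.05. MyD88-KO minus WT gave 0 (0% of all genes), with 18 at an unadjusted p under 0.05, and TRIF-KO-labelled minus WT gave 0 (0% of all genes), with 7. The 0% shares are at the adjusted threshold, and the share of all genes at an unadjusted p under 0.05 is not given. Counts at an unadjusted p, here and in other paragraphs, are therefore not read as a result about the receptors. MyD88-KO minus double-KO gave 4 receptors, 2 higher and 2 lower (10.1% of all genes, 5.72% higher and 4.35% lower), and TRIF-KO-labelled minus double-KO gave 4, 1 higher and 3 lower (6.63% of all genes, 3.56% higher and 3.08% lower). Double-KO minus WT gave 11, 3 higher and 8 lower (12% of all genes, 6.06% higher and 5.92% lower), with a median of -0.28 over the receptors and 0.02 over all genes. The comparisons share their double-KO and WT arrays.

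MyD88-KO cells differed from double-KO cells in Il13ra1, by 1.57 ± 0.44 (SE, adjusted p = 0.041), and in Il2rg, by 1.23 ± 0.32 (SE, adjusted p = 0.033), with 4 of 5 times higher for each. They were lower in Tnfrsf21, by -0.86 ± 0.23 (SE, adjusted p = 0.034), and in Il6ra, by -0.82 ± 0.23 (SE, adjusted p = 0.045), with 5 of 5 times lower for each. All of these calls rested on single arrays. Il2rg and Tnfrsf21 lost theirs without the MyD88-KO 4, 8 and 16 h and double-KO 4, 8 and 16 h arrays (0.94 to 1.45, adjusted p up to 0.12 for Il2rg, -1.04 to -0.68, adjusted p up to 0.12 for Tnfrsf21). Il13ra1 lost its call without the MyD88-KO 4, 8 and 16 h, TRIF-KO-labelled 1, 2, 4 and 16 h, double-KO 4, 8 and 16 h and WT 1 and 2 h arrays (1.24 to 1.91, adjusted p up to 0.14). Il6ra lost its call without the MyD88-KO 1, 4, 8 and 16 h, TRIF-KO-labelled 2, 4 and 8 h, double-KO 4, 8 and 16 h and WT 1, 2 and 8 h arrays (-1.03 to -0.65, adjusted p up to 0.15). At 4, 8 and 16 h, where both genotypes were scanned on the second day, the mean differences were larger, at 2.65 for Il13ra1, 1.90 for Il2rg, -1.32 for Tnfrsf21 and -1.20 for Il6ra. At these times and day Il12rb1 differed by 3.58, Il21r by 1.98 and Tnfrsf14 by 1.46, over 3 pairs of arrays and without a test.

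TRIF-KO-labelled cells were higher than double-KO cells in Tnfrsf1b, by 1.38 ± 0.24 (SE, adjusted p = 0.0071), at 5 of 5 times and in all 20 fits that left out 1 array. They were lower in Il6st, by -1.29 ± 0.29 (SE, adjusted p = 0.021), in Il6ra, by -1.15 ± 0.23 (SE, adjusted p = 0.015), and in Tgfbr2, by -1.07 ± 0.29 (SE, adjusted p = 0.04). The Il6st call was lost without the TRIF-KO-labelled 4, 8 and 16 h and double-KO 4 and 8 h arrays (-1.56 to -1.03, adjusted p up to 0.086). The Il6ra call was lost without the TRIF-KO-labelled 8 and 16 h and double-KO 4 and 8 h arrays (-1.36 to -0.99, adjusted p up to 0.063). The Tgfbr2 call was lost without the MyD88-KO 4 h, TRIF-KO-labelled 2, 4, 8 and 16 h, double-KO 4, 8 and 16 h and WT 2 h arrays (-1.28 to -0.79, adjusted p up to 0.14).

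Double-KO cells differed most from WT cells in Tnfrsf1b, by -1.41 ± 0.24 (SE, adjusted p = 0.0048), and in Il4ra, by -1.40 ± 0.39 (SE, adjusted p = 0.034). Tnfrsf1b was lower at 5 of 5 times and held in all 20 fits that left out 1 array. The other receptors with lower responses were Il1r1 at -1.12 (adjusted p = 0.026), Il17ra at -0.93 (adjusted p = 0.041), Ifnar1 at -0.78 (adjusted p = 0.043), Ifngr2 at -0.57 (adjusted p = 0.023), Il1rap at -0.53 (adjusted p = 0.046) and Ifnar2 at -0.51 (adjusted p = 0.034). Responses that were below 0 in WT cells were higher in double-KO cells, for Il6st at 0.98 (adjusted p = 0.043), Tgfbr2 at 0.97 (adjusted p = 0.042) and Il6ra at 0.83 (adjusted p = 0.036). The Il4ra call was lost without the double-KO 4, 8 and 16 h and WT 4 and 8 h arrays (-1.76 to -1.03, adjusted p up to 0.11). For Il1r1 these were the double-KO 4, 8 and 16 h and WT 2 and 8 h arrays (-1.34 to -0.82, adjusted p up to 0.078), and for Ifngr2 the double-KO 8 h and WT 4 and 8 h arrays (-0.63 to -0.47, adjusted p up to 0.081). For Il6ra they were the double-KO 4, 8 and 16 h and WT 2, 4 and 8 h arrays (0.67 to 1.04, adjusted p up to 0.12). For Ifnar2 they were the double-KO 4, 8 and 16 h and WT 4, 8 and 16 h arrays (-0.63 to -0.41, adjusted p up to 0.11). Il17ra lost its call without MyD88-KO 4 h, TRIF-KO-labelled 1, 2, 4, 8 and 16 h, double-KO 2, 4 and 8 h and WT 2, 4 and 8 h (-1.12 to -0.66, adjusted p up to 0.12). Ifnar1 lost its call without MyD88-KO 1 and 4 h, TRIF-KO-labelled 1, 2, 4, 8 and 16 h, double-KO 2, 4, 8 and 16 h and WT 4, 8 and 16 h (-0.94 to -0.63, adjusted p up to 0.13). Il1rap lost its call without MyD88-KO 1 and 2 h, TRIF-KO-labelled 1, 2, 4 and 8 h, double-KO 4, 8 and 16 h and WT 2, 4, 8 and 16 h (-0.61 to -0.45, adjusted p up to 0.14). Il6st lost its call without MyD88-KO 1, 2 and 4 h, TRIF-KO-labelled 4 and 16 h, double-KO 4, 8 and 16 h and WT 2, 4, 8 and 16 h (0.71 to 1.24, adjusted p up to 0.13). Tgfbr2 lost its call without MyD88-KO 4 h, TRIF-KO-labelled 2, 4 and 16 h, double-KO 4, 8 and 16 h and WT 2, 4, 8 and 16 h (0.69 to 1.18, adjusted p up to 0.13).

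None of these differences held in every model of the slides. With slide as a random block, or with a fit on the arrays of the 2 genotypes alone, 0 receptors passed in all 3 comparisons with limma. Without the time point as a replicate block, 0 passed for MyD88-KO minus double-KO, 0 for TRIF-KO-labelled minus double-KO and 1, Tnfrsf1b, for double-KO minus WT. The count for double-KO minus WT was 1 without the WT 8 h array and 13 at most when another array was left out.

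**Figure D3:**
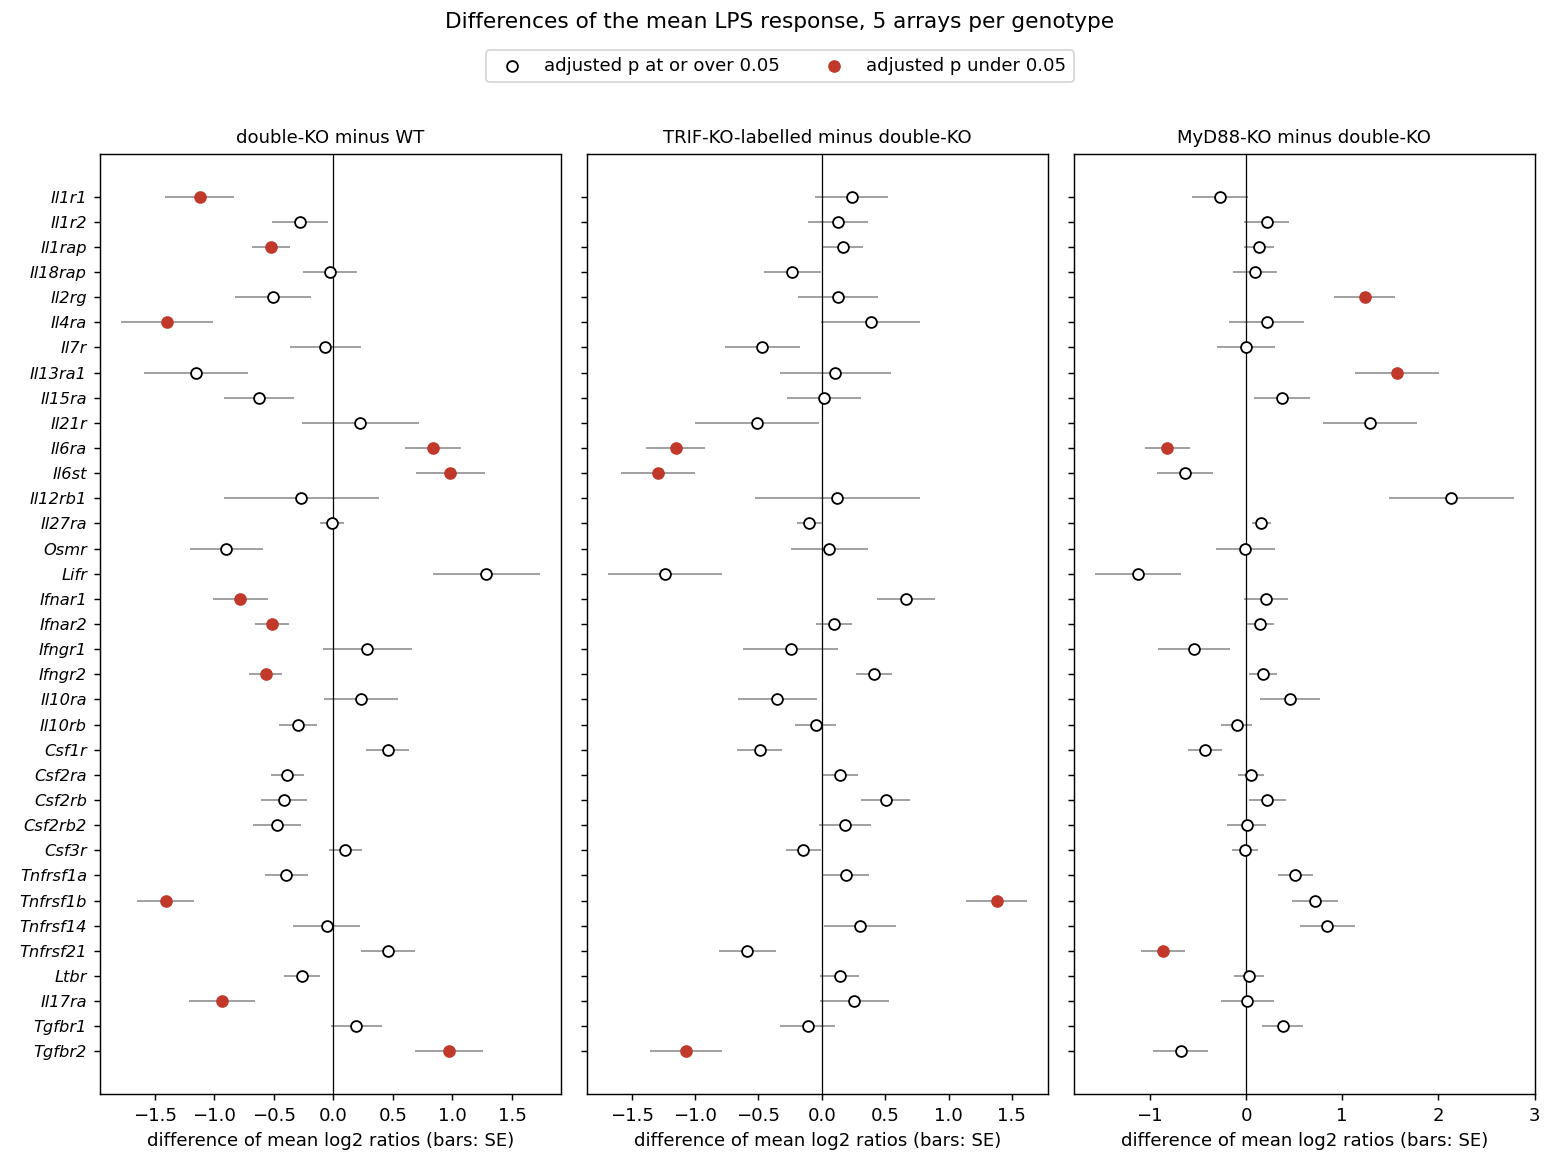
Difference in mean log2 response (with its SE) between genotypes for the 35 receptors (rows) in 3 panels, double-KO minus WT, TRIF-KO-labelled minus double-KO and MyD88-KO minus double-KO, with filled points for adjusted p under 0.05. Tnfrsf1b lies at 1.38 for TRIF-KO-labelled minus double-KO and at -1.41 for double-KO minus WT, and Il13ra1 at 1.57 for MyD88-KO minus double-KO.

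The change of the response with time was tested as a slope, the change in log2 ratio for each doubling of time. In MyD88-KO cells 9 receptors had a slope, 5 up and 4 down (10.3% of all genes, 5.52% up and 4.77% down). In TRIF-KO-labelled cells 6 had one, 1 up and 5 down (7.04% of all genes, 3.30% up and 3.74% down), and in double-KO cells 0 with limma (0%, and 0 at an unadjusted p under 0.05). In WT cells 8 had one, 4 up and 4 down (5.52% of all genes, 2.92% up and 2.60% down). Il12rb1 had the steepest, 1.41 ± 0.19 (SE, adjusted p = 0.00062) in MyD88-KO cells, where Tnfrsf14 also had one that held in all 20 fits that left out 1 array, 0.60 ± 0.12 (SE, adjusted p = 0.0054). The MyD88-KO slopes of Il13ra1 (0.71), Il2rg (0.56) and Il15ra (0.45) were up and those of Lifr (-0.81), Ifngr1 (-0.73), Tnfrsf21 (-0.45) and Il6st (-0.37) were down. Il13ra1 and Il2rg lost theirs without the MyD88-KO 1, 2 and 8 h arrays (0.57 to 1.12, adjusted p up to 0.16 for Il13ra1, 0.49 to 0.76, adjusted p up to 0.14 for Il2rg). Il15ra lost its slope without MyD88-KO 2 and 8 h, TRIF-KO-labelled 2 and 4 h and double-KO 1, 2, 4, 8 and 16 h (0.30 to 0.65, adjusted p up to 0.12). Lifr lost its slope without MyD88-KO 16 h (-1.1 to -0.47, adjusted p up to 0.2) and Ifngr1 without MyD88-KO 2, 8 and 16 h (-1.11 to -0.60, adjusted p up to 0.13). Tnfrsf21 lost its slope without MyD88-KO 1, 2, 8 and 16 h (-0.50 to -0.41, adjusted p up to 0.11) and Il6st without MyD88-KO 1 and 16 h (-0.40 to -0.33, adjusted p up to 0.079).

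Il6st, Lifr, Il10ra and Tgfbr2 had slopes down and Csf2rb a slope up in both TRIF-KO-labelled and WT cells. The slopes were -0.52 and -0.59 for Il6st, -0.89 and -0.94 for Lifr, -0.60 and -0.54 for Il10ra, -0.52 and -0.53 for Tgfbr2 and 0.29 and 0.50 for Csf2rb, each given for TRIF-KO-labelled and then for WT cells. In TRIF-KO-labelled cells Il7r also went down (-0.58), and in WT cells Il1r1 (0.44), Csf2rb2 (0.40) and Ifnar2 (0.31) went up. Slopes in WT cells were lost for Il1r1 without WT 1 and 16 h (0.24 to 0.51, adjusted p up to 0.28) and for Lifr without WT 16 h (-1.22 to -0.73, adjusted p up to 0.087). They were also lost for Csf2rb2 without WT 2 and 16 h (0.20 to 0.59, adjusted p up to 0.3) and for Tgfbr2 without WT 1, 2 and 8 h (-0.82 to -0.40, adjusted p up to 0.12). Slopes in TRIF-KO-labelled cells were lost without TRIF-KO-labelled 16 h for Lifr (-1.19 to -0.78, adjusted p up to 0.12), Il10ra (-0.72 to -0.55, adjusted p up to 0.051) and Csf2rb (0.26 to 0.36, adjusted p up to 0.13). That of Il7r was lost without TRIF-KO-labelled 1 h (-0.75 to -0.49, adjusted p up to 0.052). That of Tgfbr2 was lost without TRIF-KO-labelled 1, 2 and 8 h (-0.75 to -0.41, adjusted p up to 0.12).

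The slopes themselves were compared in tests added after the data were seen, and they differed in 2 receptors. For Il12rb1 the MyD88-KO slope exceeded the TRIF-KO-labelled slope by 1.19 ± 0.27 (SE, adjusted p = 0.026) (3.88% of all genes passed this comparison) and the WT slope by 1.26 ± 0.27 (SE, adjusted p = 0.045) (1.07% of all genes). For Il10ra, MyD88-KO exceeded TRIF-KO-labelled by 0.51 ± 0.13 (SE, adjusted p = 0.047). TRIF-KO-labelled minus WT gave 0 receptors with limma (0% of all genes), with 4 at an unadjusted p under 0.05, again without the share of all genes at that threshold. The Il12rb1 difference from TRIF-KO-labelled cells was lost without TRIF-KO-labelled 1 and 16 h (0.98 to 1.51, adjusted p up to 0.18). That from WT cells was lost without MyD88-KO 2 and 16 h, TRIF-KO-labelled 1, 2, 4 and 8 h, double-KO 1, 2, 4, 8 and 16 h and WT 1, 2, 8 and 16 h (1.05 to 1.58, adjusted p up to 0.18). That of Il10ra was lost without MyD88-KO 1, 4, 8 and 16 h, TRIF-KO-labelled 2, 8 and 16 h and double-KO 1, 2, 4, 8 and 16 h (0.37 to 0.64, adjusted p up to 0.26). With scan day as a fixed block or slide as a random block none of the 3 passed, and scan day moves with time within the MyD88-KO arrays.

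Untreated cells were compared through the Cy3 channel, which held untreated RNA on 19 arrays, 4 of MyD88-KO and 5 of each other genotype. In bulk RNA fewer cells of a type and less RNA per cell cannot be told apart. MyD88-KO minus WT gave 4 receptors, 3 higher and 1 lower (10.0% of all genes, 6.36% higher and 3.65% lower). TRIF-KO-labelled minus WT gave 0 with limma (0.437% of all genes at the adjusted threshold). At an unadjusted p under 0.05 there were 6 receptors, without the share of all genes beside them. Double-KO minus WT gave 12, 8 higher and 4 lower (26.1% of all genes, 15.5% higher and 10.6% lower). Il2rg, the common gamma chain, was lowest in double-KO cells, with log2 levels of 11.07, 11.16, 10.73, 10.72 and 11.67 in double-KO against 12.93, 12.27, 12.56, 12.88 and 13.65 in WT cells at the 5 times. MyD88-KO cells had 11.66, 12.19, 12.71 and 12.89 at 1, 4, 8 and 16 h, and TRIF-KO-labelled cells 13.11, 12.15, 12.56, 12.72 and 13.81. Every double-KO array was below every WT and TRIF-KO-labelled array, and the highest double-KO array was level with the lowest MyD88-KO array. The difference of double-KO minus WT was -1.79 ± 0.19 (SE, adjusted p = 1.1e-05), and it kept its call under all 10 alternative settings and in all 20 fits that left out 1 array.

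Il12rb1 averaged 7.72 ± 0.16 (SD, n = 5) in double-KO and 8.86 ± 0.58 (SD, n = 5) in WT cells, a difference of -1.14 ± 0.19 (SE, adjusted p = 0.00055) with 5 of 5 times lower. Il21r differed by -0.82 (adjusted p = 0.0043) at 4 of 5 times, and Tnfrsf14 by -0.35 (adjusted p = 0.037). The Tnfrsf14 call was lost without the double-KO 2, 4, 8 and 16 h and WT 2, 8 and 16 h arrays (-0.41 to -0.22, adjusted p up to 0.12). Il2rg, Il12rb1, Il21r and Tnfrsf14 are also among the 13 of 35 receptors that had a response in MyD88-KO cells above (35.5% of all genes). So are Tnfrsf21, Tgfbr2 and Il6st, which were higher in untreated double-KO cells, and the other receptors that were higher are not. A link between untreated level and response was not tested. Tnfrsf21 was higher in double-KO cells, with levels of 10.82, 10.54, 9.81, 10.77 and 10.99 in double-KO against 10.11, 9.53, 9.24, 9.66 and 9.83 in WT cells and a difference of 0.91 ± 0.09 (SE, adjusted p = 5.5e-06). Tgfbr2 was higher by 0.88 ± 0.11 (SE, adjusted p = 5.3e-05), at 15.32 ± 0.30 (SD, n = 5) in double-KO and 14.44 ± 0.14 (SD, n = 5) in WT cells, and both were higher at 5 of 5 times. The others that were higher were Il7r at 0.75, Il1rap at 0.56, Ifngr1 at 0.56, Il6st at 0.54, Csf2ra at 0.32 and Il17ra at 0.45. The Il17ra call was lost without the double-KO 1, 2 and 8 h and WT 1, 2 and 4 h arrays (0.32 to 0.57, adjusted p up to 0.13).

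All double-KO arrays and no WT array were scanned on the second day. Within that day, at 4, 8 and 16 h, untreated double-KO minus MyD88-KO levels averaged -1.56 for Il2rg, -1.30 for Il12rb1, -0.47 for Tnfrsf14, 0.85 for Tnfrsf21, 0.93 for Tgfbr2 and 0.45 for Il1rap. They averaged -0.26 for Il21r, 0.18 for Il7r, 0.22 for Il17ra, 0.13 for Ifngr1, -0.0006 for Csf2ra and -0.29 for Il6st. Untreated Il6st was itself higher in MyD88-KO than in WT cells. With scan day as a fixed block 3 receptors passed for double-KO minus WT, with slide as a random block 6, without the replicate block 7, and with median centring of the Cy3 intensities 2. Markers of macrophages and of other cells also moved in untreated double-KO cells. Of 3 fibroblast markers 2 were higher, with a log2 summed level of 9.30 to 10.03 in double-KO and 8.75 to 9.27 in WT cells. Of the 3 T cell markers tested 1 was higher, Cd2 by 1.67, while Cd3d differed by 0.13 (adjusted p = 0.61) and Cd3e by -0.0055 (adjusted p = 0.97). The log2 T cell sum was 9.94 to 11.53 in double-KO and 9.78 to 10.34 in WT cells. Neutrophil markers overlapped in sum, at 14.88 to 15.65 in double-KO and 14.95 to 15.48 in WT cells, and among them Ly6g differed by -2.59, Camp by 0.72 and S100a8 by -0.45 on the log2 scale. The dendritic cell markers Flt3 and Zbtb46 differed by 0.54 and -0.94 and the B cell marker Ms4a1 by 0.72. Among macrophage markers Fcgr1 differed by -1.14, Cd14 by -0.53, Mpeg1 by -0.20, Itgam by 0.54 and Mertk by 0.29. Emr1, Cd68 and Lyz2 did not pass the test. The log2 macrophage sum was 19.53 to 19.66 in double-KO and 19.67 to 20.03 in WT cells. The part of these markers in the receptor differences was not tested.

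In untreated MyD88-KO cells Il6st was higher than in WT cells by 0.71 ± 0.11 (SE, adjusted p = 0.0017), at 4 of 4 times and in all 20 fits that left out 1 array. Csf2rb2 (0.54 (adjusted p = 0.041)) and Il18rap (0.40 (adjusted p = 0.017)) were higher and Il13ra1 (-0.52 (adjusted p = 0.035)) was lower, each at 4 of 4 times. Csf2rb2 lost its call without MyD88-KO 4, 8 and 16 h, TRIF-KO-labelled 2, 4 and 8 h, double-KO 4 and 8 h and WT 2, 4, 8 and 16 h (0.40 to 0.64, adjusted p up to 0.13). Il18rap lost its call without MyD88-KO 4, 8 and 16 h and WT 8 h (0.34 to 0.46, adjusted p up to 0.062). Il13ra1 lost its call without MyD88-KO 1, 4 and 8 h and WT 1, 8 and 16 h (-0.61 to -0.34, adjusted p up to 0.097). Neutrophil markers were higher in the same cells for 4 of the 5 on the list: Camp by 1.84, S100a9 by 1.63, S100a8 by 1.37 and Ngp by 1.06, while Ly6g differed by -1.42 (adjusted p = 0.081). The T cell marker Cd2 was also higher, by 1.02, while Cd3d differed by 0.44 and Cd3e by -0.055 (adjusted p = 0.13 and 0.74 with limma). Among macrophage markers Mertk was higher by 0.42 and Fcgr1 and Mpeg1 differed by -0.74 and -0.26. The log2 summed level of the neutrophil markers was 16.58 to 16.90 in MyD88-KO, 15 to 15.56 in TRIF-KO-labelled, 14.88 to 15.65 in double-KO and 14.95 to 15.48 in WT cells, so no MyD88-KO array overlapped the others. Their part in the MyD88-KO differences of receptors was not tested. The MyD88-KO arrays at 4, 8 and 16 h were scanned apart from WT, and with the day as a fixed block 1 receptor passed; without the replicate block 0 did.

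**Figure D4:**
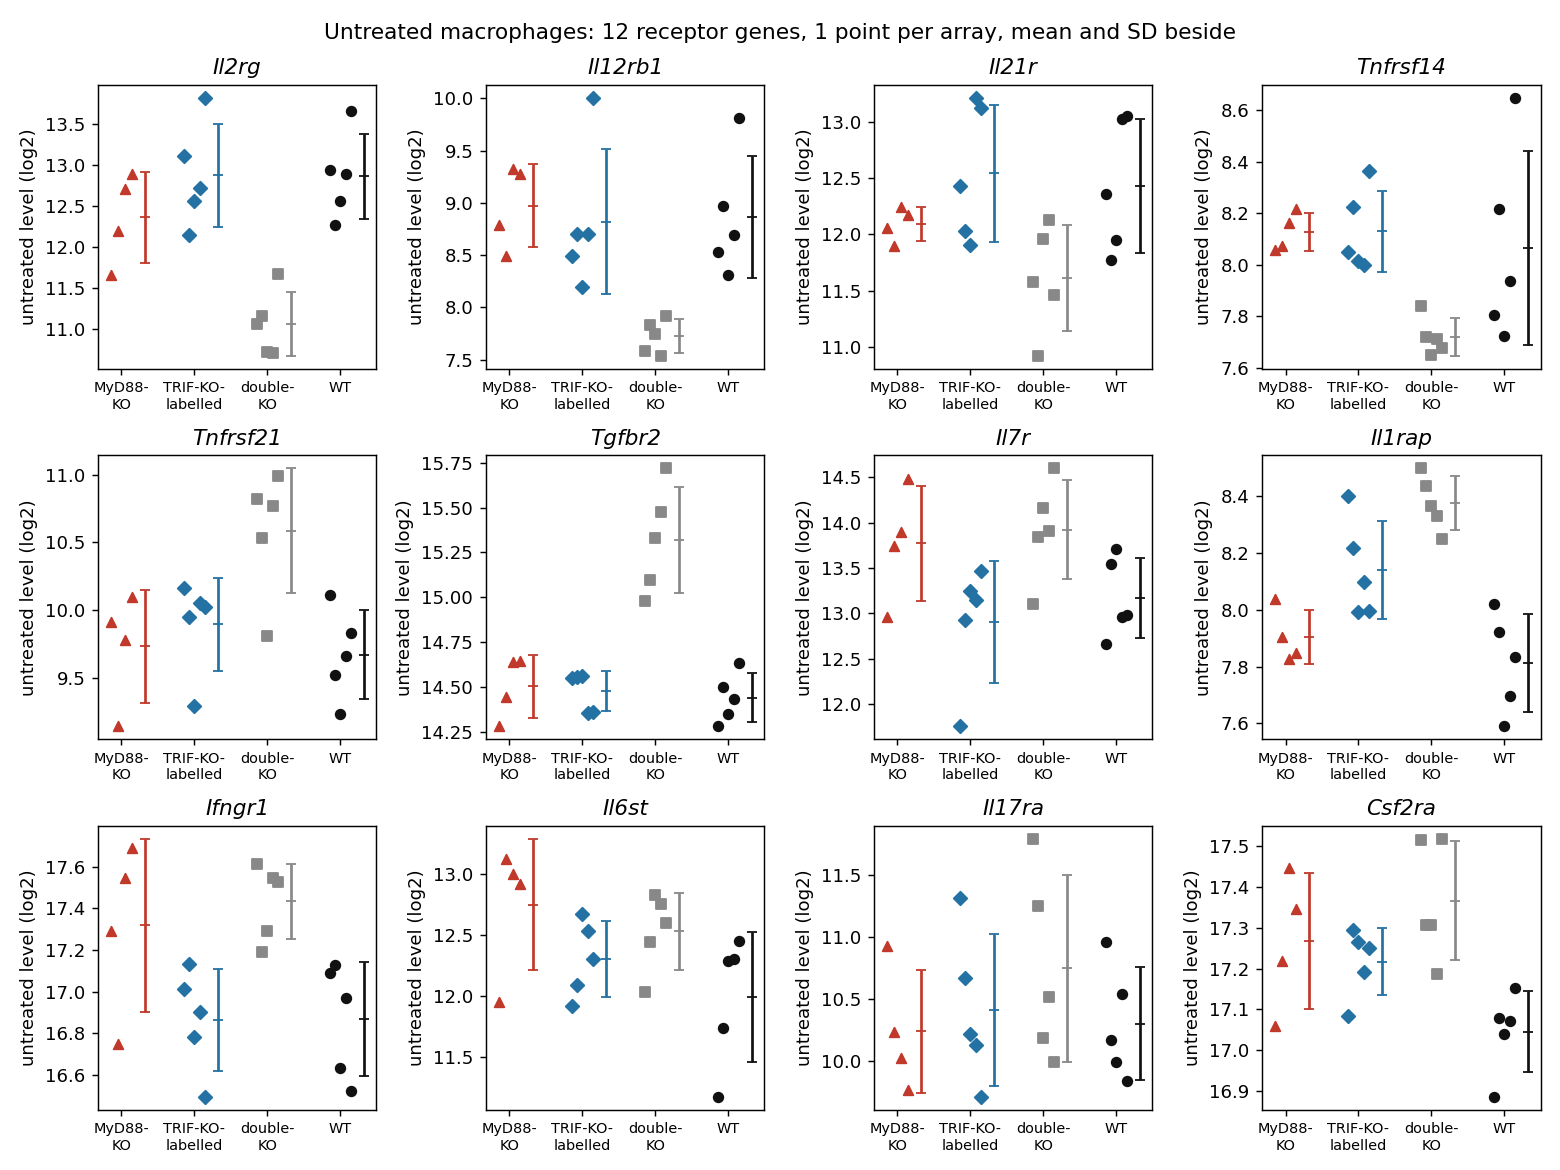
Log2 level in untreated cells (Cy3 channel, 1 point per array, with the mean and SD beside the points) of the 12 receptors that differed between double-KO and WT cells, by genotype. The Il12rb1 points of double-KO cells lie below those of every other genotype and the Tgfbr2 points above them, the Il2rg points lie below those of TRIF-KO-labelled and WT cells, and the Il21r and Tnfrsf21 points of double-KO cells overlap those of WT cells.

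Where a receptor has several probes, they did not always give the same response, and the gene's value is that of its brightest probe. For Il1rap the double-KO minus WT difference was -0.53 with the probe that stands for the gene. It was -0.39 with A_55_P2041422 and -0.0012 with A_55_P2041432, whose ratios had a correlation of -0.23 with those of the first over the 20 arrays. The Ifnar1 probe A_55_P2454784 had WT ratios of 0.64, 1.45, 2.29, 2.14 and 0.84, against 0.22, 0.53, 0.55, 1.15 and 1.31 for the probe that stands for the gene. Tested on its own, it differed by 0.79 ± 0.23 (SE, adjusted p = 0.046) between MyD88-KO and double-KO cells, by 1.06 ± 0.23 (SE, adjusted p = 0.02) between TRIF-KO-labelled and double-KO cells and by -1.62 ± 0.23 (SE, adjusted p = 0.0017) between double-KO and WT cells, all of it chosen after the values were seen. Il4ra and Il15ra are the pairs whose sequences are printed above, and the 2 Il4ra probes disagreed in WT cells at 4 h by more than 2 log2 units.

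**Figure D5:**
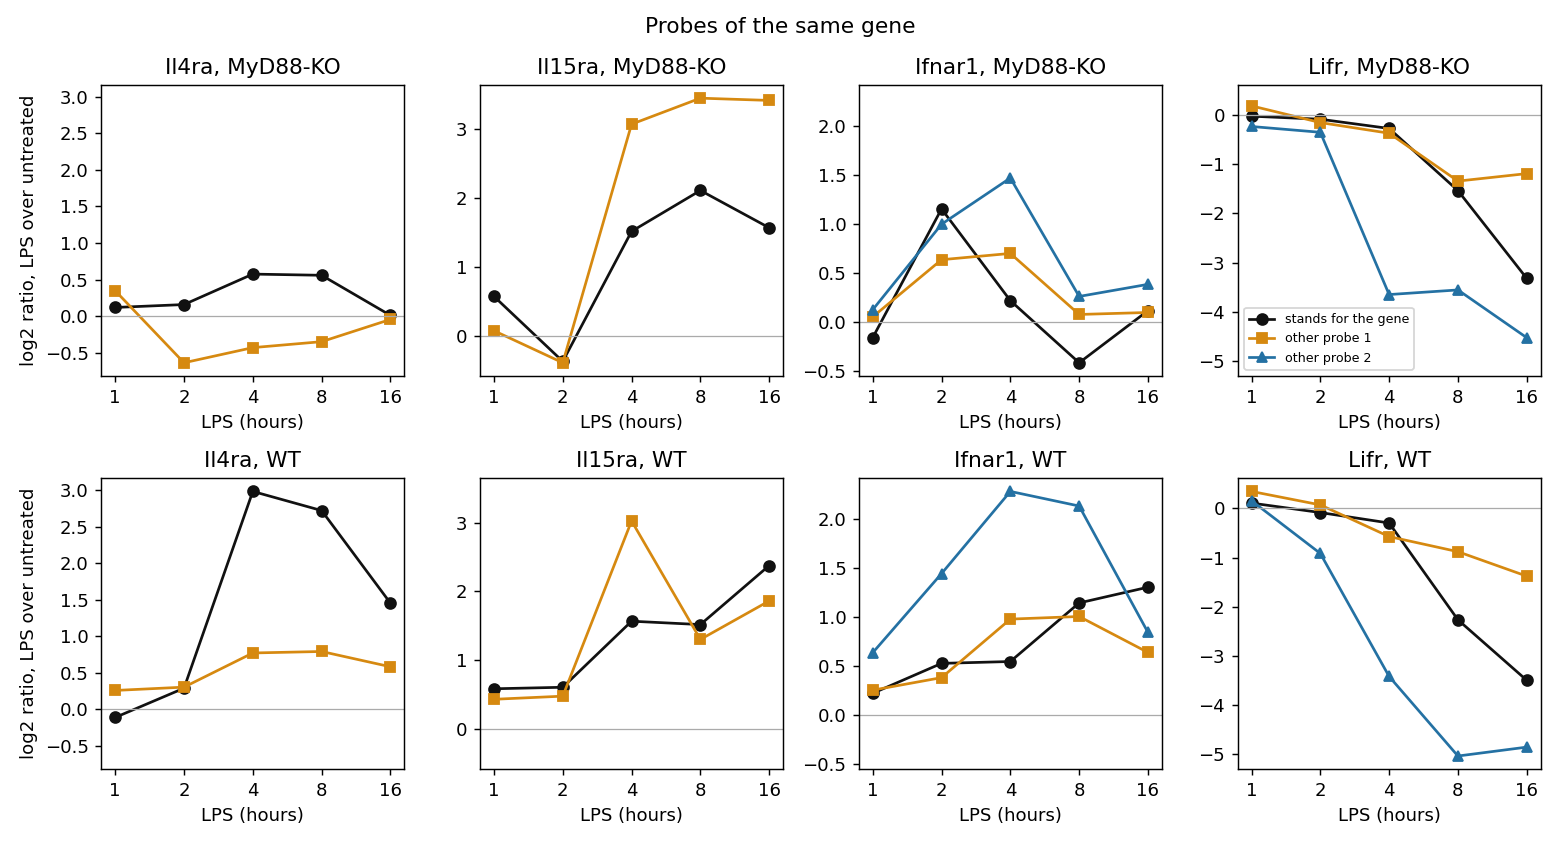
Log2 ratio of LPS-treated over untreated cells against time (1 to 16 h) for each probe of Il4ra, Il15ra, Ifnar1 and Lifr, in MyD88-KO cells (upper row) and WT cells (lower row); each line is 1 probe and the black line is the probe that stands for the gene. The 3 probes of Lifr are below 0 at 8 and 16 h and differ in size, and the second Il4ra probe stays below 1 where the first reaches 2.98 in WT cells.

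Genes around these receptors were counted by list, beside the shares of all genes that passed: 35.5% in MyD88-KO (16.8% higher and 18.7% lower), 29.1% in TRIF-KO-labelled (12.9% and 16.2%), 0.332% in double-KO and 36.4% in WT cells (16.7% and 19.7%). Of 31 ligands of the receptors, 27 were tested: 15 rose and 1 fell in MyD88-KO cells, 15 rose in TRIF-KO-labelled cells, 0 changed in double-KO cells with limma and 17 rose in WT cells. The ligands' median response was 0.93 in MyD88-KO, 0.82 in TRIF-KO-labelled, -0.02 in double-KO and 1.17 in WT cells, beside 0.12, 0.07, 0.0034 and 0.26 for the receptors in these genotypes. Between genotypes, MyD88-KO minus double-KO gave 10 ligands, all higher (10.1% of all genes, 5.72% higher), TRIF-KO-labelled minus double-KO 9, all higher (6.63%, 3.56% higher), and double-KO minus WT 10, all lower (12%, 5.92% lower). MyD88-KO minus TRIF-KO-labelled was largest for Ifnb1, interferon beta, at 4.05 (adjusted p = 0.12), Il1a at -2.78 and Il1b at -2.30, which did not pass the test. Of 30 kinases, adapters and inhibitors that act at the receptors, 16 rose and 4 fell in MyD88-KO cells, 12 rose and 5 fell in TRIF-KO-labelled cells, 0 changed in double-KO cells with limma, and 15 rose and 5 fell in WT cells. Their largest MyD88-KO minus TRIF-KO-labelled values, none past the test, were -1.82 for Irak3, an inhibitor of the interleukin 1 pathway, 1.72 for Socs2 and 1.64 for Usp18, an inhibitor at the type I interferon receptor. Of 57 further receptors of the same families 53 were tested, and 9 rose and 11 fell in MyD88-KO cells, 11 rose and 7 fell in TRIF-KO-labelled cells, 0 changed in double-KO cells with limma, and 15 rose and 8 fell in WT cells. For these further receptors the MyD88-KO counts lie near the shares of all genes. The numbers that rose in TRIF-KO-labelled and WT cells lie above the shares, which was not tested.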

How the data were processed

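RNA of LPS-treated and untreated macrophages was hybridised on 20 2-colour arrays (Agilent design with mm9 coordinates). Per the file headers, the authors' scanner files came from Agilent Feature Extraction 10.10.1.1 and hold the mean and background intensity of each spot in Cy3 and Cy5, a processed intensity, and a log10 ratio of Cy5 over Cy3. Values deposited for the series as a whole hold the same log10 ratio, uncentred by probe, with an array median of 0 and the sign of the swapped array not turned. Here the mean intensities were corrected with normexp (offset 50) and made into log2 ratios with loess within each array in limma 3.58.1 (R 4.3.3). Channel levels, on the log2 scale, were made comparable with Aquantile. Spots of a probe were averaged, probes well above background on at least 3 arrays were kept (28304 of 39429), and a gene took its kept probe of highest mean intensity.

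One limma model with genotype and time point (the replicate number of the labels) was fitted over all 20 arrays, a second over the 19 Cy3 untreated arrays, and another with a slope per doubling of time for each genotype. P-values were adjusted by Benjamini-Hochberg over 21978 genes, with a threshold of 0.05. Array number limits the precision: on simulated data a log2 change of 1 in MyD88-KO was recovered for 87% of changed genes as a response and 73.5% as a difference from double-KO, and a slope of 0.5 for 70.5%. The simulated noise was independent between arrays, without slide or dye effects, and the change of 1 was the same at every time. These shares therefore do not give the recovery in the real data, where responses changed over time. The same-time arrays of WT, TRIF-KO-labelled and MyD88-KO cells deviated together (correlations of 0.22 to 0.83), those of double-KO did not with any genotype (-0.20 to 0.13). All 35 receptors are named; ratios at every time are given for those past a test and at least 1 log2 unit on an array, or as needed to show an order, and up to 3 genes of each pathway list by their MyD88-KO minus TRIF-KO-labelled difference. The rule for printing promoters, a MyD88-KO minus TRIF-KO-labelled difference past the test, named none, so those with an NF-kB or ISRE match were printed. The receptors, lists and tests were chosen with earlier results of these data known. Of the cell type lists, B cell, dendritic and mast cell markers were checked as well; Xcr1 and Fcer1a were above background on 0 arrays.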

Additional observations from a re-analysis of the deposited data

Results flagged for a closer look

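Some single arrays stood apart from the other arrays of their genotype by Dixon's test, 6 of the 140 groups of 5 ratios tested, where chance gives about 5%. They were Csf2ra in MyD88-KO cells at 16 h (0.84), Csf2rb2 in TRIF-KO-labelled cells at 16 h (1.04), and, in double-KO cells, Il1r2 at 16 h (0.42), Il12rb1 at 8 h (-0.16), Csf1r at 4 h (-0.056) and Tgfbr2 at 16 h (-0.14). All 4 double-KO values are under 0.5 log2 units.

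Responses that differed between genotypes by the test of the difference were, for MyD88-KO minus double-KO, Il13ra1 (1.57), Il2rg (1.23), Tnfrsf21 (-0.86) and Il6ra (-0.82). For TRIF-KO-labelled minus double-KO they were Tnfrsf1b (1.38), Il6st (-1.29), Il6ra (-1.15) and Tgfbr2 (-1.07). For double-KO minus WT they were Tnfrsf1b (-1.41), Il4ra (-1.40), Il1r1 (-1.12), Il17ra (-0.93), Ifnar1 (-0.78), Ifngr2 (-0.57), Il1rap (-0.53), Ifnar2 (-0.51), Il6st (0.98), Tgfbr2 (0.97) and Il6ra (0.83). Slopes over time differed for Il12rb1 in MyD88-KO minus WT (1.26) and in MyD88-KO minus TRIF-KO-labelled (1.19), and for Il10ra in MyD88-KO minus TRIF-KO-labelled (0.51). These comparisons of slopes were added after the data were seen. Il21r was above 0 on every MyD88-KO array and below 0 on every double-KO array, and its difference of 1.29 did not pass the test (adjusted p = 0.097).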

How the results depend on the processing

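Counts of receptors past the test moved with the model more than with the choice of probe. With slide as a fixed block, MyD88-KO, TRIF-KO-labelled and WT responses numbered 2, 3 and 0, the 3 differences that had passed 0 each, slopes 0 each in MyD88-KO and TRIF-KO-labelled, the slope difference of MyD88-KO from TRIF-KO-labelled 0, and untreated MyD88-KO and double-KO against WT 1 and 3. With slide as a random block they were 8 for TRIF-KO-labelled responses, 0 for the 3 differences, 5 for MyD88-KO slopes, 0 for both slope differences, and 1 and 6 for untreated MyD88-KO and double-KO. With scan day as a fixed block they were 13 for WT responses, 9, 2 and 5 for the differences MyD88-KO minus double-KO, TRIF-KO-labelled minus double-KO and double-KO minus WT, 0 for MyD88-KO slopes and both slope differences, and 1, 2 and 3 for untreated MyD88-KO, TRIF-KO-labelled and double-KO against WT. Without the replicate block (the time point) they were 5 for TRIF-KO-labelled responses, 0, 0 and 1 for those differences, and 0 and 7 for untreated MyD88-KO and double-KO. A dye term gave 2 for each response, 4 for MyD88-KO slopes and 0 for the slope difference from WT; a fit of the 2 genotypes compared gave 0 for each difference. Scale normalization gave 8, 7, 2 and 10 responses in MyD88-KO, TRIF-KO-labelled, double-KO and WT, 4 for double-KO minus WT, slopes of 2, 1 and 4 in MyD88-KO, TRIF-KO-labelled and WT, and slope differences of 1 from TRIF-KO-labelled and 0 from WT. Median centring gave 2 for double-KO minus WT, slopes of 2 in TRIF-KO-labelled and 4 in WT, 0 for the slope difference from WT, and, on the Cy3 intensities, 0 and 2 for untreated MyD88-KO and double-KO. No filter on dim probes gave 2 for MyD88-KO minus double-KO, 6 for double-KO minus WT, 1 for untreated TRIF-KO-labelled against WT, and slope differences of 1 from TRIF-KO-labelled and 0 from WT; the deposited log10 ratio gave 1 and 0 for these slope differences. With each kept probe tested on its own, an alternative added after seeing the data, untreated TRIF-KO-labelled against WT gave 1. The cause of these changes was not tested.

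Signs turned with slide as a fixed block for Il6st (0.055) and Lifr (0.050) in MyD88-KO, Osmr (-0.44), Ifngr2 (-0.027) and Il17ra (-0.495) in WT, Tnfrsf1b in TRIF-KO-labelled minus double-KO (-0.31), Il4ra (1.35), Ifnar1 (0.38), Ifngr2 (0.57), Tnfrsf1b (0.425) and Il17ra (1.53) in double-KO minus WT, the Il15ra slope in MyD88-KO (-0.17), untreated Il18rap in MyD88-KO (-0.034) and untreated Il1rap in double-KO (-0.018). They also turned with scan day for that Il15ra slope (-0.17) and with median centring for Csf1r in TRIF-KO-labelled (0.024) and WT (0.17). Leaving out 1 array gave 9 to 15, 6 to 14, 0 to 0 and 15 to 22 responses in MyD88-KO, TRIF-KO-labelled, double-KO and WT, and slopes of 4 to 12, 3 to 9, 0 to 0 and 6 to 10. It gave 0 to 4 for MyD88-KO minus TRIF-KO-labelled, 0 to 11 for MyD88-KO minus double-KO (0 without MyD88-KO 4 h), 1 to 7 for TRIF-KO-labelled minus double-KO, 0 to 1 for MyD88-KO minus WT, 0 to 0 for TRIF-KO-labelled minus WT and 1 to 13 for double-KO minus WT. Untreated differences from WT ranged over 1 to 8 for MyD88-KO, 0 to 2 for TRIF-KO-labelled and 10 to 13 for double-KO, and slope differences over 0 to 2 for MyD88-KO minus WT, 1 to 2 for MyD88-KO minus TRIF-KO-labelled and 0 to 1 for TRIF-KO-labelled minus WT. The time points pair arrays by the labels, yet double-KO ratios did not deviate with those of other genotypes (correlations of -0.20 to 0.13), and the differences from double-KO fell to 0, 0 and 1 without the block, so these calls rest on it. Signal limits Osmr, which was above background on 3 arrays.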
